A study of Homo sapiens with 3 samples.

Results

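HA-TFE3 binding was examined at the genes that fuse with TFE3 in human tumours: ASPSCR1, PRCC, SFPQ, NONO, CLTC, RBM10 and MED15. The study located HA-TFE3 on chromatin with ChIP-seq, in which DNA that is precipitated together with a protein is sequenced. The cells were HK-2, an immortalised human line of the kidney proximal tubule, that had been given a doxycycline-inducible HA-TFE3 gene. It comprised 2 replicate HA-TFE3 ChIP libraries, precipitated through the HA tag, and 1 input DNA library, which was not analysed here. Cells were grown in 1.5% serum, and the labels describe 24 h of culture either with or without doxycycline at 0.2 µg/ml, but do not assign that treatment to single libraries. The bound protein is therefore a tagged TFE3 from an introduced gene, not a fusion protein. No list labelled as from uninduced cells or from a control precipitation enters the report. Nothing in the labels ties the ChIP replicates to separate cultures, so differences between them may be technical.

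A summit is the single base at which the authors placed the centre of a peak, and each summit carries their own score, on a scale that no source used here explains. Summits were taken from the span of each gene on hg19 and 5 kb on each side. Of 62287 summits of replicate 1 on the numbered chromosomes and X, 46 lay in these windows, and of 72647 in replicate 2, 48 did. Summits of both lists that were each other's nearest within 100 bp were taken as a pair, and 33 of the 47396 pairs of the genome lay in the 7 windows, which cover 412 kb. Read counts are not part of the lists, so the depth is unknown, and the scores are used only to rank summits within a list. A score percentile gives this rank, with 100 for the highest score of a list.

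In translocation renal cell carcinoma and alveolar soft part sarcoma, a chromosome break joins the 5′ part of a partner gene to the 3′ part of TFE3, which encodes the basic helix-loop-helix leucine zipper that binds DNA. The fusion transcript then starts at the promoter of the partner. TFE3 itself recognises E-box sequences and is known for activating genes of lysosomes and autophagy. The partners fall into groups by function: SFPQ and NONO are sister RNA-binding proteins of paraspeckles, RBM10 and PRCC act in RNA splicing, MED15 is a subunit of the Mediator coactivator, CLTC is the clathrin heavy chain, and ASPSCR1 (TUG) holds glucose transporter vesicles inside the cell.

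Each of the 7 partner genes held at least 1 pair, and the number ran from 1 in NONO to 14 in MED15. The windows ran from 28 kb in SFPQ to 102 kb in MED15, and 25.7% and 51.1% of genome windows of these lengths held a pair. Paired summits were 71.7% of the partner-gene summits in replicate 1 (33 of 46, exact binomial 95% interval 56.5 to 84.0) and 68.8% in replicate 2 (33 of 48, 53.7 to 81.3). Over all summits of the genome 76.1% of replicate 1 and 65.2% of replicate 2 were paired, which lies inside both intervals. The scores were also ordinary for paired summits. The median percentile of the 33 pairs was 64.9 in replicate 1 and 70.5 in replicate 2, against 59.1 and 64.3 for all pairs. Both scores lay among the highest 10% of their list for 3 of the 33 pairs, 1 each in ASPSCR1, PRCC and SFPQ, where 9.11% of all pairs did so. The highest score was 36.9 in replicate 1, at ASPSCR1, and 39.5 in replicate 2, at MED15, in lists that reached 270.2 and 253.2.

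**Figure D1:**
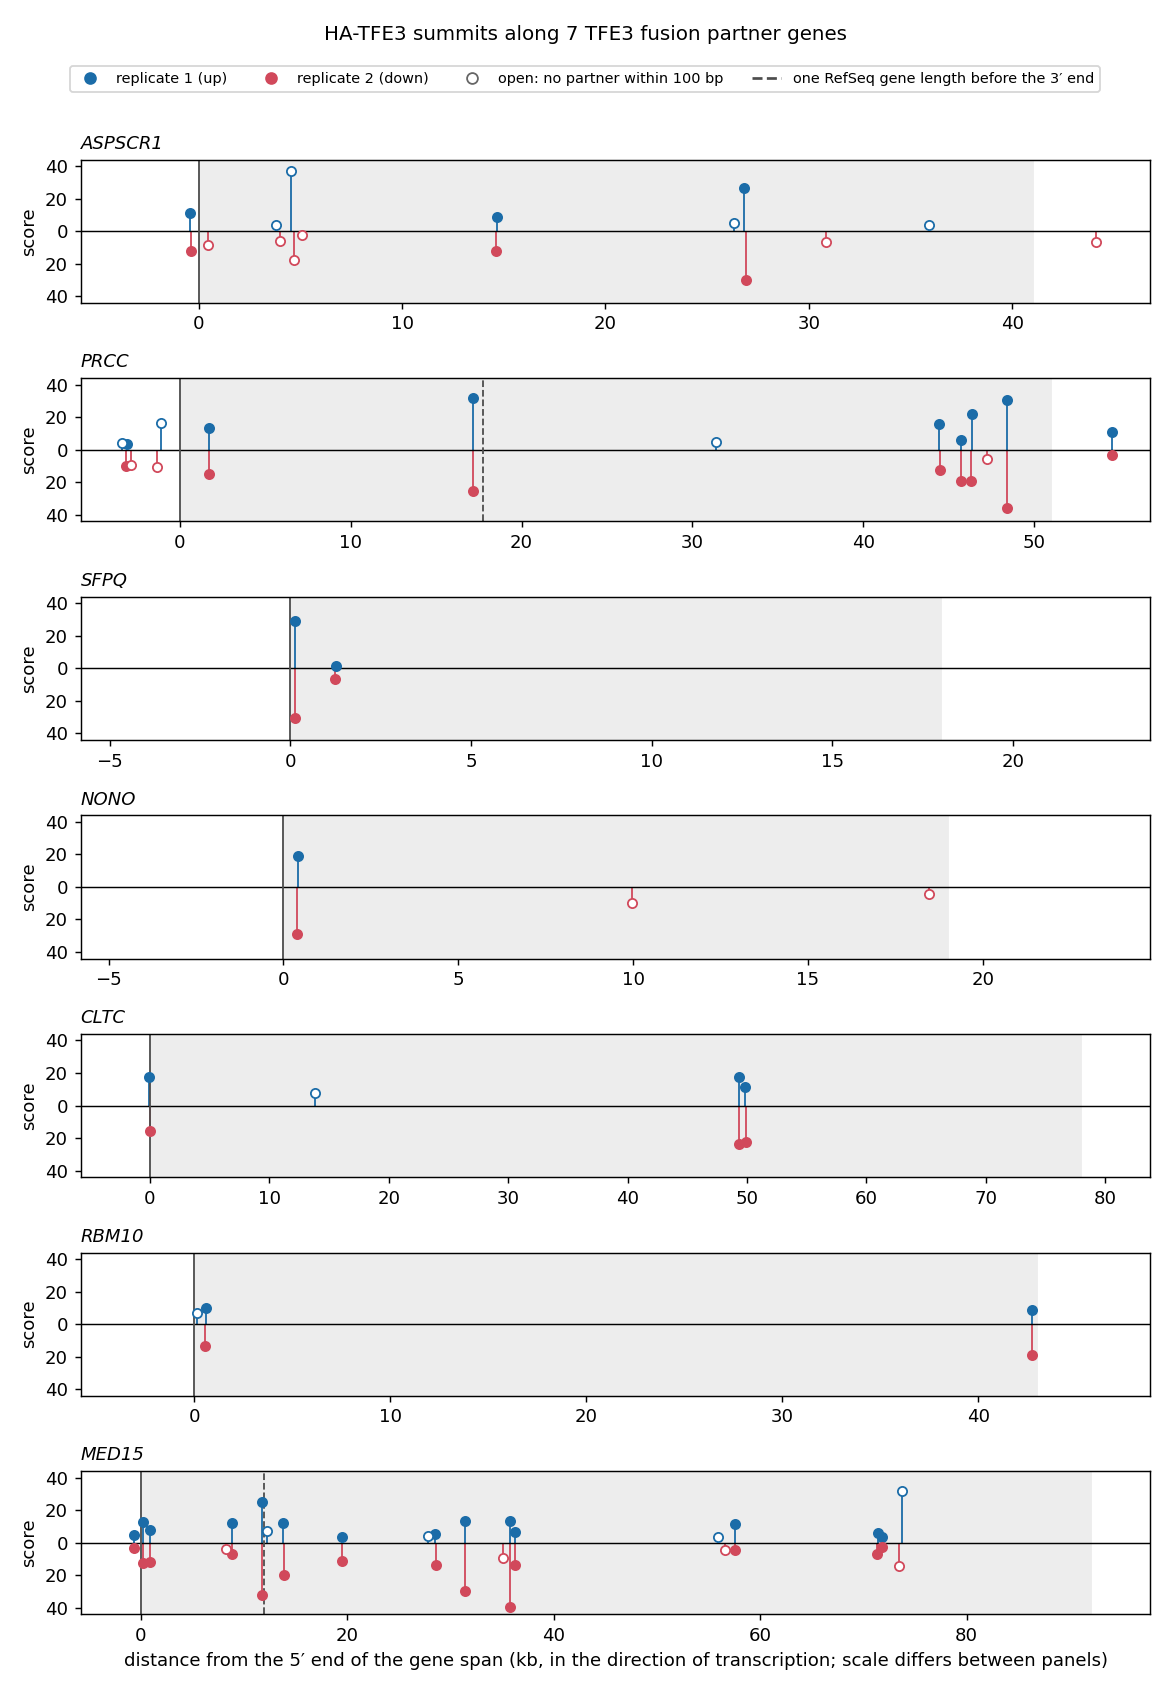
Score of each HA-TFE3 summit (vertical axis, replicate 1 upward and replicate 2 downward) against its distance from the 5′ end of the gene span in kb, with the span shaded; filled points are paired within 100 bp, open points have no partner, and the dashed line marks the base 1 RefSeq gene length before the 3′ end. Pairs sit at the 5′ end in ASPSCR1, SFPQ, NONO, CLTC, RBM10 and MED15, and at the dashed line in PRCC and MED15.

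Paired summits gathered at the starts of the spans. Within 1 kb of the 5′ end of the span lay 8 pairs, in 6 of the 7 spans, with that of PRCC the exception. That is 5.71 pairs per 10 kb (Poisson 95% interval 2.47 to 11.3), against 0.63 (0.41 to 0.93) over the rest of the windows, where 25 pairs lay in 398 kb. Without MED15, which alone had 3 of the 8, the values were 4.17 (1.35 to 9.72) and 0.47 (0.26 to 0.79). Over the whole genome, 2.88% of windows of 2 kb held a pair. The starts of other genes were not analysed here, so nothing is shown to be particular to these genes. The intervals cover counting error only. As the spans are given to the whole kb, a distance from a start is uncertain by up to 1 kb. In PRCC and MED15 it may be off by more, since their spans exceed the RefSeq length by 17.7 and 11.99 kb.

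The spans of PRCC and MED15 begin well before the RefSeq genes. RefSeq gives PRCC a length of 33.3 kb on GRCh38, 17.7 kb shorter than its hg19 span, and MED15 a length of 80.0 kb, 11.99 kb shorter. For the other genes the difference was at most 1.47 kb. Measured back from the 3′ end of the span, and if that end is the same in both sources, the RefSeq start of PRCC would lie 0.58 kb after a pair at base 156737137 of chromosome 1. That of MED15 would lie 0.22 kb after a pair at base 20861775 of chromosome 22. These were among the strongest pairs of their genes, with scores of 32.01 and 25.2 in PRCC and of 24.8 and 32.1 in MED15. With these starts, a reading added after the positions were seen, each of the 7 genes had exactly 1 pair within 1 kb of its start. The 7 pairs had median percentiles of 83.0 in replicate 1 and 89.0 in replicate 2, and the other 26 had 62.0 and 67.5. By the span starts, the planned reading, there was no such contrast. The 8 pairs there had medians of 65.2 and 67.7, and the other 25 had 64.9 and 73.7.

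The promoters of the partners were read from RefSeq on GRCh38.p14, 250 bases before to 50 bases after the start, for 6 of the 7 genes and 7 promoters, as MED15 has 2; SFPQ was not matched. They were searched on both strands for the E-box CACGTG, its extended form GTCACGTG, which contains it, the E-box CATGTG, and the AP-1 heptamer TGACTCA, whose other strand reads TGAGTCA. The promoters that held a match are shown first, then that of PRCC as an example that held none, 5′ to 3′ on the strand of the gene with matches in capitals. They lie at chr17:81977379-81977678 (ASPSCR1), chrX:71283385-71283684 (NONO), chr17:59619645-59619944 (CLTC) and chr1:156767285-156767584 (PRCC) of GRCh38.p14, all on the plus strand.
ASPSCR1: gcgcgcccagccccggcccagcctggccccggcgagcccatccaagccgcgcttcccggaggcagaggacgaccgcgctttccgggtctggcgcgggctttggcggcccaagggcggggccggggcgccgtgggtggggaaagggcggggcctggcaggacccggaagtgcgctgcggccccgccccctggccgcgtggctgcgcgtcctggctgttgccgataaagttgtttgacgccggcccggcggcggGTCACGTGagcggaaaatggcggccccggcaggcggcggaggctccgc
NONO: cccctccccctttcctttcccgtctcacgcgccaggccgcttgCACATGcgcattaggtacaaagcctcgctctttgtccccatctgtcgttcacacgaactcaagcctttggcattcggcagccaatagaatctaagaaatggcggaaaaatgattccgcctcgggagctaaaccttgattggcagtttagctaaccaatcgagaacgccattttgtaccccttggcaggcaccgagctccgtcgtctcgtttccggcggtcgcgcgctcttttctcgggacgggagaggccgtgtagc
CLTC: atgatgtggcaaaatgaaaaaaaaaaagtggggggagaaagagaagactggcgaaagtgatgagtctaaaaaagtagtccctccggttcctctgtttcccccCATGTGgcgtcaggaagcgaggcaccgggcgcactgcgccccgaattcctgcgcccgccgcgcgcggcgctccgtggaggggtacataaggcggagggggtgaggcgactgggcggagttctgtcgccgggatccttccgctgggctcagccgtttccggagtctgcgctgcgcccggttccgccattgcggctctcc
PRCC: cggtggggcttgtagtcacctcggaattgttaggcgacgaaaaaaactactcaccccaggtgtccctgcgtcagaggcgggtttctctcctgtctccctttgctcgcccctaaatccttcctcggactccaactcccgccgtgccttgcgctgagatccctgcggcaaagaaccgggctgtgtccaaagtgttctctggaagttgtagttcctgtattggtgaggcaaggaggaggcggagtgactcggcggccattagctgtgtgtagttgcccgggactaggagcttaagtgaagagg

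The ASPSCR1 promoter carried the extended E-box at bases 253 to 260 of the printed run, that is from base 3 of the transcript. It was the only 1 of the 7 partner promoters with CACGTG, which 7.26% of the 35116 promoters in the table hold, while 2.40% hold GTCACGTG. CATGTG was found in CLTC, at bases 103 to 108, and in NONO on the opposite strand as CACATG, at bases 44 to 49, and 11.1% of all promoters hold it. The AP-1 heptamer was found in 0 of the 7, where 4.95% of all promoters hold it. The promoters of PRCC, RBM10 and MED15 held none of these letters in this window. Distances between summits and motifs are not given, because the sequences and the summits are on different builds.

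SFPQ and NONO, whose proteins pair with each other on RNA, showed the plainest pattern, a strong pair at the start and little else. SFPQ lies in 1p34.3 on the minus strand, from 35641000 to 35659000 of chromosome 1. Its window held 2 summits in each library, and each had its partner. Over all summits of the genome 76.1% of replicate 1 and 65.2% of replicate 2 were paired. Of genome windows of the same length, 25.7% hold a pair. The summit at base 35658871, 0.13 kb inside the 5′ end, scored 29.3 in replicate 1, and its partner at base 35658856 scored 30.5 in replicate 2. These are percentiles of 93.4 and 93.2, the highest of any pair within 1 kb of a span start. The other pair, at base 35657730, scored 1.72 and 6.29, and its rank of 62137 in replicate 1 is close to the end of that list. The SFPQ start was thus equally strong in both libraries, and its second pair scored below the list median in both.

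NONO lies in Xq13.1 on the plus strand, from 70503000 to 70522000 of chromosome X, and had 1 summit in replicate 1 and 3 in replicate 2. The single pair stood 0.41 kb inside the start, at bases 70503409 and 70503397, with scores of 19.1 and 28.8. Of genome windows of this length, 26.3% hold a pair. Replicate 2 also listed base 70512977 with 9.69 and base 70521470 with 4.41, both in the gene body. Replicate 1 had no summit near either, so their presence rests on replicate 2 alone. ITGB1BP2, a gene on the plus strand, is the RefSeq neighbour within 5 kb on the 3′ side. Base 70521470, near that end, cannot be assigned to either gene by position. Chromosome X had 6.51 pairs per Mb along its whole length, the NONO window 34.5 (0.87 to 192.1), an interval so wide that it holds the chromosome's value.

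RBM10, a splicing regulator, lies on the other arm of chromosome X, in Xp11.23 from 47004000 to 47047000 on the plus strand. Its window held 3 summits in replicate 1 and 2 in replicate 2, with 2 pairs, where 37.7% of genome windows of its length hold at least 1. The pair near the start, at bases 47004591 and 47004531, scored 9.91 and 13.6. Replicate 1 placed a further summit at base 47004114 with 7.12. In RefSeq's gene order NDUFB11, an oxidative phosphorylation gene on the minus strand, adjoins RBM10 at this end within 5 kb, so summits here cannot be told apart as belonging to either gene. The second pair lay at the 3′ end, at base 47046749, and scored 8.50 and 18.8. It is 42.7 kb from the start of RBM10 and on the side of UBA1, the next gene. RBM10 had no summit in between, and its scores in replicate 1 were close to that list's median of 8.55. With a limit of 50 bp the pair at the start was lost, as its summits were 60 bp apart.

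PRCC lies in 1q23.1 with a span from 156720000 to 156771000 of chromosome 1, on the plus strand. It held 11 summits in each library and 8 pairs, where 40.6% of genome windows of its length hold at least 1. The pair with the highest mean percentile was at base 156768401, near the 3′ end, with scores of 30.9 and 35.7. It closed a group of 4 pairs that spanned 3959 bp from base 156764442. Of the others in the group, base 156766335 scored 22.3 and 18.9, base 156764442 scored 16.03 and 12.2, and base 156765706 scored 5.79 and 19.0. The 3′ end of PRCC thus carried as strong a signal as the pair by the RefSeq start, which is described above. Between that pair and the 3′ group only replicate 1 listed a summit, at base 156751396 with a score of 4.64.

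The other PRCC pairs lay at the edges of the window. Base 156721717 scored 13.5 and 15.1, base 156716904 scored 3.84 and 9.98, and base 156774560, beyond the 3′ end, scored 10.7 and 3.33. HDGF, a growth factor gene on the minus strand, is the neighbour on the 5′ side and lies within 5 kb of the RefSeq PRCC gene, so the first part of the PRCC window reaches over HDGF. Which gene the summits there belong to cannot be told apart by position. Replicate 1 also had base 156718900, at 16.3, and replicate 2 base 156718647, at 10.6. At 253 bp apart they counted as a pair only with the limit of 500 bp.

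MED15, whose protein links transcription factors to Mediator, had the most summits. It lies in 22q11.21 with a span from 20850000 to 20942000 of chromosome 22, on the plus strand, and held 18 summits in each library and 14 pairs. Of genome windows of this length 51.1% hold at least 1. The highest mean percentile, 91.9, belonged to the pair at base 20861775 by the RefSeq start. It was followed by base 20885769, with 13.5 in replicate 1 and 39.5 in replicate 2, and base 20881383, with 13.6 and 29.4. Whether these bases are exonic or intronic was not resolved, since exons on hg19 were not used here. Both lay in a group of 4 pairs over 7663 bp, from base 20878551 to base 20886214, with scores from 5.65 to 13.6 in replicate 1 and from 13.6 to 39.5 in replicate 2. The replicates ranked this group differently, with each of its 4 pairs at a higher percentile in replicate 2. The same held for 9 of the 14 MED15 pairs and for 57.2% of all pairs of the genome.

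The start of the MED15 span was surrounded by 3 further pairs. They scored 12.6 and 12.2 at base 20850273, 7.98 and 11.9 at base 20850876, and 4.83 and 3.49 at base 20849375. KLHL22, which encodes a ubiquitin ligase adaptor, is the protein-coding neighbour on this side and is read from the minus strand. By RefSeq gene length the 3 pairs would lie 11.1 to 12.6 kb before the start of MED15. Which gene they belong to cannot be told apart by position. The pair with the lowest mean percentile of all, at base 20921810, scored 3.69 and 2.63. MED15 also held the highest score without a partner outside ASPSCR1, 31.9 at base 20923760 of replicate 1. The nearest summit of replicate 2, at base 20923426 with 14.1, was 334 bp away.

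CLTC, the longest RefSeq gene after MED15, lies in 17q23.1 from 57697000 to 57775000 of chromosome 17 on the plus strand. It had 4 summits in replicate 1, 3 in replicate 2 and 3 pairs, and 48.1% of genome windows of its length hold at least 1. The pair at the start, at bases 57696961 and 57696969, was the closest to a span start of all pairs and scored 17.3 and 15.4. The other 2 pairs stood together 49.4 and 49.9 kb into the gene. They scored 17.5 and 23.7 at base 57746357, and 11.4 and 22.4 at base 57746862, which is 505 bp further. All 3 pairs scored above the median of their list in both libraries, as did 19 of the 33 pairs of the 7 genes. The share over all pairs of the genome was not computed. The remaining summit, base 57710824 of replicate 1, scored 7.73 and had no summit of replicate 2 closer than the one at the start.

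ASPSCR1, the partner of TFE3 in alveolar soft part sarcoma, lies in 17q25.3 from 79935000 to 79976000 of chromosome 17 on the plus strand. It had 7 summits in replicate 1, 9 in replicate 2 and 3 pairs, and 37.0% of genome windows of its length hold at least 1. Its paired share was 42.9% in replicate 1 (exact binomial interval 9.90 to 81.6) and 33.3% in replicate 2 (7.49 to 70.1). Both were below the shares over all summits of the genome, 76.1% and 65.2%. The genome shares lie inside these wide intervals, so a lower share in ASPSCR1 is not established. The pair at the start, 0.41 kb before it, lay at bases 79934591 and 79934627 and scored 11.3 and 12.3. Replicate 2 listed a further summit at base 79935461, after the start, with 8.54. The strongest pair lay 26.8 kb into the gene at bases 79961799 and 79961893, with 26.5 and 29.8, and the third, at base 79949664, scored 8.83 and 12.3. The start thus ranked below the strongest pair of the gene body in both libraries. Against the third pair it was higher in replicate 1 (percentiles of 63.0 and 52.5) and level in replicate 2 (65.97 and 66.1).

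The strongest ASPSCR1 summit of replicate 1 had no partner under the limit of 100 bp. It lay at base 79939567, 4.57 kb into the gene, with a score of 36.9 and a percentile of 96.8. Replicate 2 had a summit of 17.9 at base 79939686, 119 bp away, just outside the limit. The strongest pair, at 94 bp, was just inside it. Both libraries listed a second summit close by, base 79938784 with 3.70 in replicate 1 and base 79939007 with 6.28 in replicate 2. Each library thus had signal between 3.8 and 5.1 kb into ASPSCR1 that the pairing does not count.

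**Figure D2:**
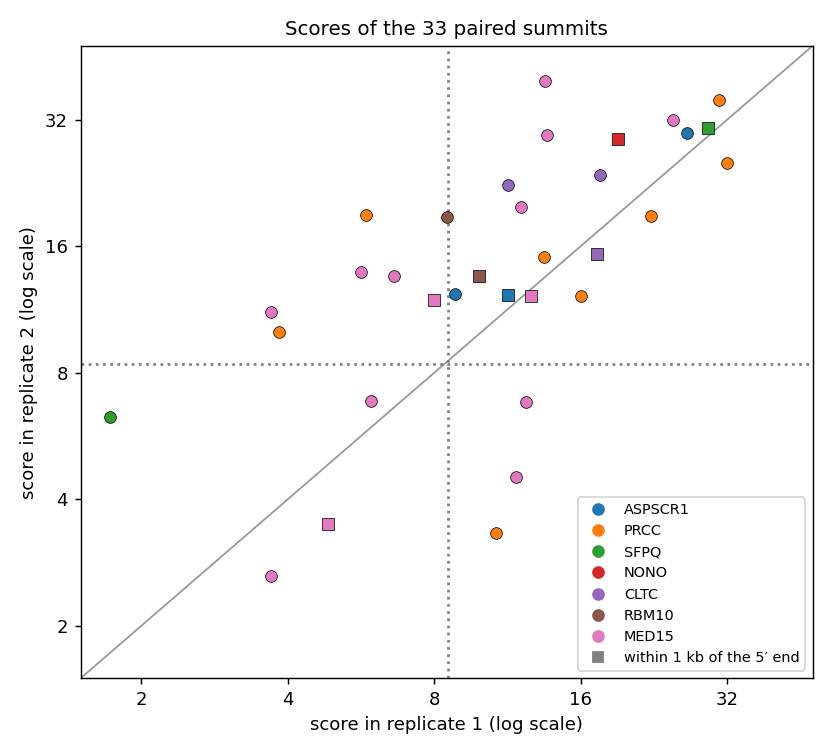
Scores of the 33 pairs in replicate 1 (horizontal, log scale) and replicate 2 (vertical, log scale), coloured by gene, with squares for pairs within 1 kb of the 5′ end of the span, a line of equal scores and dotted lines at the list medians of 8.55 and 8.38. The squares lie near the line of equal scores, while several pairs of MED15 and PRCC lie far above or below it.

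The replicates gave the pairs at the span starts closely matching ranks. The 8 pairs within 1 kb of the span start differed between libraries by a median of 7.27 percentile points and by at most 18.6. The 25 other pairs differed by a median of 21.6 points and by up to 56.3, at base 20869475 in MED15, which scored 3.69 and 11.2. Over all pairs of the genome the median difference was 11.7 points, and 22.9% differed by over 25 points. Among the partner genes 11 of 33 did, of which 8 ranked higher in replicate 2 and 3 in replicate 1. By any margin, 22 of the 33 pairs ranked higher in replicate 2, and 57.2% of all pairs of the genome did. The difference between pairs at starts and elsewhere was not tested. Across the 33 pairs Spearman's correlation of the scores was 0.72, and across all pairs of the genome it was 0.73, as a description over sites that share libraries.

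Summits without a partner numbered 13 in replicate 1, with a median percentile of 22.6, and 15 in replicate 2, with 35.6. Over the genome such summits had medians of 24.8 and 27.4. Of those in the partner genes, 3 of 13 and 7 of 15 scored above the median of their list, among them the summits of 36.9 in ASPSCR1 and 31.9 in MED15. In replicate 1, 7 of the 13 had a summit of the other library within 500 bp, and in replicate 2, 5 of the 15 did. Like shares over the 14891 and 25251 unpaired summits of the genome were not computed. Whether these counts are ordinary is thus not known. ASPSCR1 held 4 of the 13 and 6 of the 15. SFPQ had none in either library. NONO had 2 in replicate 2 and none in replicate 1, while CLTC and RBM10 each had 1 in replicate 1 and none in replicate 2.

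**Figure D3:**
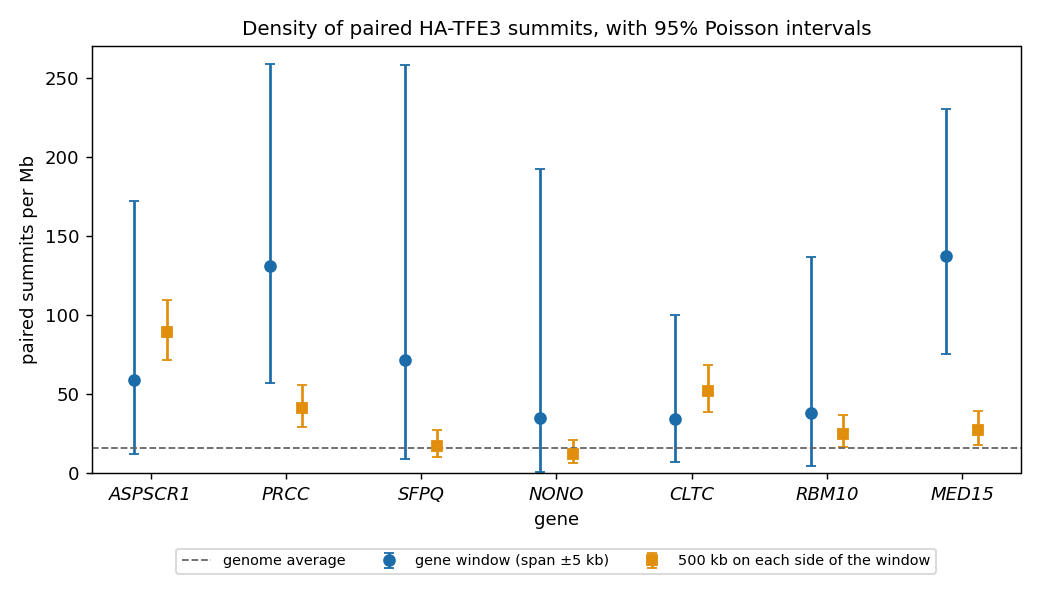
Paired summits per Mb (vertical axis) in each gene window (circles) and in the 500 kb on each side of it (squares), with Poisson 95% intervals, and the genome average of 15.6 per Mb as a dashed line. The intervals treat pairs as independent, and those of window and surroundings are apart in MED15, narrowly apart in PRCC, and overlap in the other genes.

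Paired summits were denser in the partner windows than in the genome as a whole. The 7 windows held 80.1 pairs per Mb (Poisson 95% interval 55.1 to 112.5), which is 5.13-fold (3.53 to 7.21) the genome average of 15.6. Windows drawn around genes hold a gene start by construction, and other genes were not analysed here, so the fold does not set the partners apart from genes in general. The 500 kb on each side of the windows had 37.6 per Mb (33.2 to 42.4). MED15, with 137.3 per Mb (75.0 to 230.3) against 27.0 (17.8 to 39.3) around it, and PRCC, with 131.1 (56.6 to 258.4) against 41 (29.4 to 55.6), stood above their surroundings. In PRCC the intervals nearly touch. All these intervals treat pairs as independent, while many pairs of both genes lay in close groups, so the intervals may be too narrow. Both windows also take in the stretch before the RefSeq-length start, 17.7 kb in PRCC and 11.99 kb in MED15. Densities without that stretch were not computed. ASPSCR1 had 58.8 (12.1 to 171.9) in surroundings of 89.0 (71.5 to 109.5), and CLTC 34.1 (7.03 to 99.6) in surroundings of 52.0 (38.8 to 68.2). SFPQ had 71.4 (8.65 to 258.02) against 17 (9.90 to 27.2), NONO 34.5 against 12 (6.20 to 20.96), and RBM10 37.7 (4.57 to 136.3) against 25 (16.2 to 36.9). Without MED15 and PRCC the windows had 44.2 per Mb (22.1 to 79.0), and their surroundings 39.0 (33.7 to 44.9). Among these 5 genes the intervals of window and surroundings overlapped throughout, with ASPSCR1 and CLTC below their surroundings and the other 3 above.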

How the data were processed

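The series holds 2 HA-TFE3 ChIP libraries and 1 input library from HK-2 cells, grouped by their titles. The authors deposited, per ChIP library, summits of 1 bp with a score. Its scale, the aligner and the peak caller are not stated in the sources used here. The build is hg19, per the submitters' processing notes. Chromosomes 1 to 22 and X were kept, and 35 of 62322 and 45 of 72692 summits elsewhere were dropped. Gene spans on hg19 were given in whole kb, and 5 kb was added on each side. Pairs are mutual nearest summits within 100 bp, a step tested on simulated lists. Intervals are exact at 95%, binomial for shares and Poisson for densities. With 1 group of samples no test was made.

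All 7 genes are named. The rule names, in each gene, the 3 pairs with the highest mean percentile and every summit within 1 kb of the start, and the highest-scoring unpaired summit; the other summits named were chosen after their values were seen, and the genes and motifs were chosen with earlier results of these data known. A planned count of further partner genes was not run, because hg19 gene coordinates were not used here. Bands came from circlize 0.4.16, chromosome lengths from GenomeInfoDb 1.38.1, and promoters, gene lengths and gene order from RefSeq on GRCh38.p14. Python 3.11.15, NumPy 2.4.6, pandas 2.3.3, SciPy 1.17.1 and matplotlib 3.10.9 were used. Alternatives were pairing limits of 50, 200 and 500 bp, the summits above the median score, the 10000 highest-scoring summits, no flank or 10 kb, each library alone, and starts within 0.5 or 2 kb.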

Additional observations from a re-analysis of the deposited data

How the results depend on the processing

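No paired analysis was possible because the series has a single group of ChIP libraries. Between pairing limits of 50 and 500 bp the windows held 29 to 37 pairs, and each library alone had 46 to 48 summits. Restriction to summits above the median score left 19 pairs, with median percentiles of 77.5 and 86.4. The 10000 highest-scoring summits left 5 pairs, 0 of them in NONO, CLTC and RBM10, with medians of 93.4 and 93.2 and 50% of the replicate 2 summits paired. Without a flank the median of replicate 2 was 77.3. All summits of replicate 1 alone (without replicate 2) had a median percentile of 58.6, and those of replicate 2 alone (without replicate 1) had 65.1. The 8 pairs at span starts became 5 within 0.5 kb, 5 without a flank, 1 among the 10000 highest-scoring summits and 7 with the start set by RefSeq gene length, and each library alone had 9 summits there. The fold over the genome density stayed between 4.87 and 5.78. Of 72 further values, on single genes and on that density, 56 stayed within 1.5 times the main value in either direction and 16 moved further. For each library alone, summits were set against pairs. Shares have no value for a single library.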

Other observations

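The strongest summits near ASPSCR1 lay just beyond the window. At its 3′ side, 62 bp outside the window, replicate 1 had base 79981062 of chromosome 17 with a score of 45.5, and replicate 2 had base 79981067 with 41.7. Both scores are above that of every summit in the 7 windows. CENPX, a centromere protein gene on the minus strand, is the RefSeq neighbour on this side. RBM10 likewise had summits just outside its window on the side of UBA1, the ubiquitin-activating enzyme gene, at bases 47053108 and 47053104 of chromosome X. They scored 14.4 and 25.4, above every RBM10 summit of the same library. CLTC had summits 4967 and 4996 bp beyond its window that scored higher still, 48.8 in replicate 1 and 54.7 in replicate 2. On this 3′ side PTRH2, a gene on the minus strand, is the RefSeq neighbour within 5 kb of CLTC. PRCC had summits of 36.4 and 37.7 at 4043 and 3935 bp outside its window, on the 5′ side, where HDGF is the neighbour. With a flank of 10 kb the partner windows held 37 pairs in place of 33.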
